A study of Mus musculus with 3 samples.

Results

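The 42 genes described here act in G2 and mitosis: the CDK1 kinase with its cyclins and small subunits, the mitotic kinases and their partners, the ubiquitin machinery of anaphase, kinetochore and spindle proteins, and proteins that shape chromosomes, the nuclear envelope and the cleavage furrow. They were chosen by name, as a list of cell-cycle genes read across the study's cell clusters, and all 42 were found among the 28692 gene identifiers of the count table. That they stood highest in the cluster named Myelo-2 and lowest in Myelo-4 was known when the list was proposed. These features are therefore descriptions here, not findings.

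The study profiled single bone marrow cells of wild-type C57BL/6 mice by CITE-seq, which reads each cell's messenger RNA together with DNA-barcoded antibodies on its surface. Marrow from crushed hindlimbs was enriched for cells carrying CD117, the KIT receptor of blood progenitors, and sorted for a population the submitters call modified GMP, after the granulocyte-monocyte progenitor. There is 1 RNA library from a male sample (6796 cells) and 1 from a female sample (4336 cells), and the antibody tags of both were sequenced as 1 pooled library. No treatment, mutation or transgene is present in any sample, and the sources used here state neither the age nor the number of mice behind a library. The spread between the libraries therefore includes sex and may be technical. The authors sorted the cells into 17 named clusters, and those names are used as deposited. Pairs of values below give the female library and then the male library, each n = 1, so a group of 2 libraries cannot pass an exact permutation test (smallest p 0.5).

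A cell that has copied its DNA waits in G2 until CDK1, bound to a B-type cyclin, starts mitosis. Chromosomes then condense, the nuclear envelope opens and the spindle attaches to kinetochores. The anaphase-promoting complex, helped by Cdc20 and Ube2c, marks cyclin B and the cohesin guard securin for destruction, so that the chromatids part. Most of these genes are transcribed only late in the cycle, through promoters that carry CCAAT boxes, bound by NF-Y, and a cell cycle genes homology region, bound by the MuvB complexes. In marrow, granulocyte precursors divide until the myelocyte stage and then mature without further division.

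The promoter letters of the members are shown first, because the members were read as a group that is transcribed together. RefSeq start sites on GRCm38.p6, the assembly behind the mm10 build named by the submitters, gave 40 windows of 300 bases (250 before to 50 after the start) for 37 of the 42 members. Smc4, Dlgap5, Tpx2, Cdca2 and Aurkb had no entry. The 120 bases upstream of the start follow, 5′ to 3′ on the gene's own strand, for the 4 members named most often below (Hmgb2, Cdk1, Cdc20, Ube2c), for the pair of CDK subunits that behaved differently (Cks1b, Cks2) and for the main mitotic cyclin (Ccnb1). Capitals mark CCAAT on either strand (ATTGG when reversed) and TTTGAA on either strand (TTCAAA when reversed).
Hmgb2 (chr8:57511723-57511842, plus strand): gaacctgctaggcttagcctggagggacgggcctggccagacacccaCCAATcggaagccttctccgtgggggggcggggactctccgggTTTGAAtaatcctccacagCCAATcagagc
Cdk1 (chr10:69352913-69353032, minus strand): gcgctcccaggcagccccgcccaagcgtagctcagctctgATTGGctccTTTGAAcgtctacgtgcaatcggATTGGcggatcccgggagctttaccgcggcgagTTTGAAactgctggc
Cdc20 (chr4:118437344-118437463, minus strand): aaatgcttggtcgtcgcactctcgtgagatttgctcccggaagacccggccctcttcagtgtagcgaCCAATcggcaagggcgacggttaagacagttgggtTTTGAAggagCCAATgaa
Ube2c (chr2:164769809-164769928, plus strand): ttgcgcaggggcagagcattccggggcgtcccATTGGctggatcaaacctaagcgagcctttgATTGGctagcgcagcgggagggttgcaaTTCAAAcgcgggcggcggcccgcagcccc
Cks1b (chr3:89418292-89418411, minus strand): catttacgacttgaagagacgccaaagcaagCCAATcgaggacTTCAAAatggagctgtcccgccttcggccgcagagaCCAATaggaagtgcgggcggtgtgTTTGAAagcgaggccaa
Cks2 (chr13:51645112-51645231, plus strand): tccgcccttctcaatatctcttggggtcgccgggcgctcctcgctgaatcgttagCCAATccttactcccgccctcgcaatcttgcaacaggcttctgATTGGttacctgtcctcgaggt
Ccnb1 (chr13:100786487-100786606, minus strand): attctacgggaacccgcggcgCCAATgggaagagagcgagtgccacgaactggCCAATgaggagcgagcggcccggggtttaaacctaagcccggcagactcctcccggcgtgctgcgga
Each of these 7 stretches held 2 CCAAT boxes. Hmgb2, Cdc20 and Ube2c held TTTGAA once, and Cdk1 and Cks1b held it at 2 places. The letters were not found in the stretches of Cks2 and Ccnb1, which says only that these letters are not in this window.

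Over the whole 300-base windows, TTTGAA in either direction was found for 28 of 37 members (75.7%), against 20.2% of 27025 genes with a window and 14.5% of 9061 such genes that were expressed enough to be tested in Gran-1 against Multi-Lin. CCAAT was found for 29 of 37 members (78.4%), against 41.1% of all genes and 43.2% of the tested genes. Both stood in the same window for 23 of 37 members (62.2%), against 7.97% and 6.01%. The related letters TTCGAA, which are never a match to TTTGAA as well, were found for 2 of 37 members (5.41%), against 1.80% and 2.56%. A list of 53 other mitosis genes, none of them members, held TTTGAA in 23 of 41 genes with a window (56.1%) and CCAAT in 27 of 41 (65.9%). A list of 40 S-phase genes, which copy DNA, held it in 6 of 28 (21.4%), close to the share of all genes. CCAAT, by contrast, was found for 19 of 28 S-phase genes (67.9%). Of the 40 TTTGAA matches in member windows, 28 began no more than 50 bases before the start or after it. Of 89 CCAAT matches, 56 lay within 100 bases before the start. Windows of the same gene can overlap, as for Ect2, so these numbers count some letters more than once. A match is a description of letters, not a bound site.

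**Figure D1:**
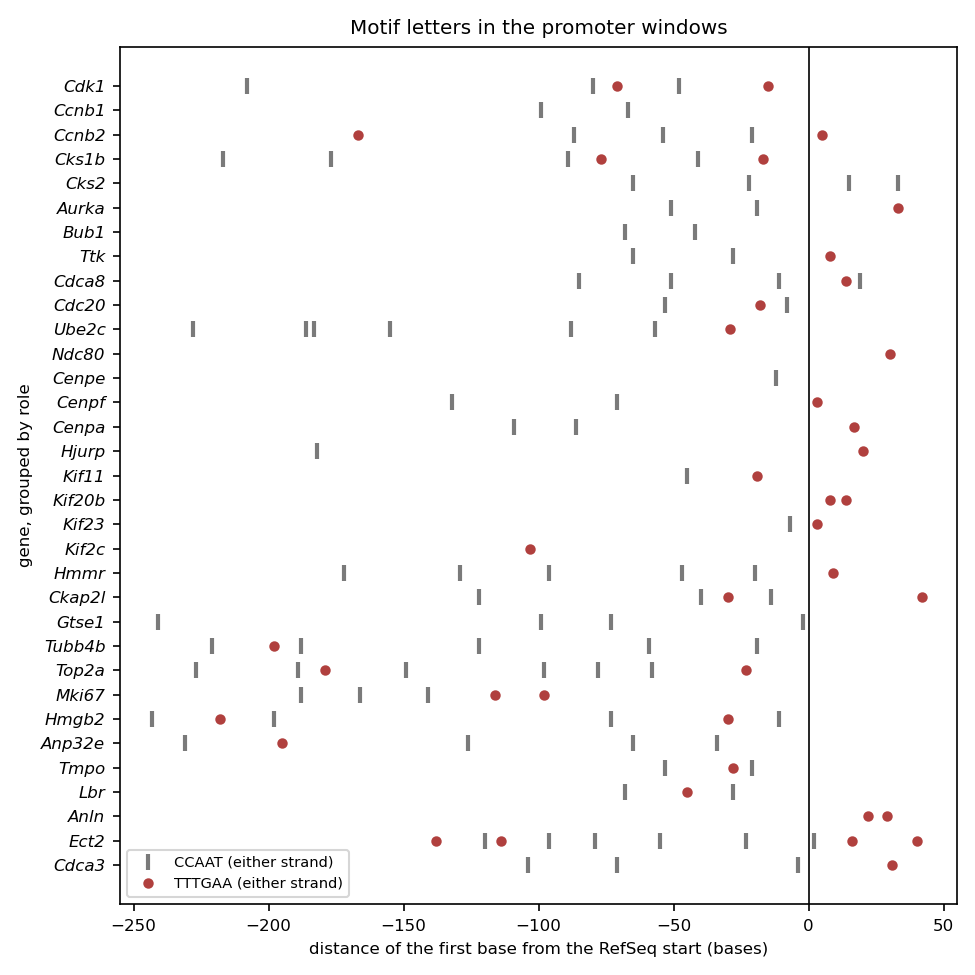
Position of CCAAT (grey bars) and TTTGAA (red dots), either strand, relative to the RefSeq start in bases, 1 row per member with a match, with rows grouped by role and the start at 0. The TTTGAA matches sit near the start in most rows, with 28 of 40 from 50 bases before it onwards. The CCAAT matches lie mostly within the 100 bases upstream. Overlapping windows of the same gene, as for Ect2, repeat some matches.

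The libraries held 91448433 and 124967351 UMIs (unique molecular identifiers, each marking 1 captured transcript), with medians of 21202 and 18687 per cell and at least 4373 in every cell. Depth per cell differed between clusters, from a median of 27908 and 23120.0 UMIs in MP and 27602 and 22359 in Gran-1 down to 5844 and 5057 in Myelo-4. Sums in Myelo-4 (31 and 28 cells), HSCP-1 (14 and 10) and DC (11 and 22) rest on few cells. Megakaryocyte, erythroid and dendritic markers were highest in Meg, Eryth and DC. Monocyte markers (Csf1r, Irf8, Ly86, Ms4a6c, Klf4) were higher in DC (2395 and 2866 CPM, counted per 1000000 UMIs of the same library and cluster) and cMoP (1956 and 1765) than in Mono (1249 and 1276), and basophil markers were highest in Multi-Lin (2042 and 2588). Dendritic markers stood at 295 and 1795 in HSCP-1, whose libraries differ most below; their part in that difference was not tested. Megakaryocyte markers (Pf4, Itga2b, Gp9, Gp1bb) summed to 6043 and 4104 CPM in Meg, late neutrophil markers (Ly6g, Retnlg, Mmp8, Mmp9, Cxcr2, Ltf) to 16252 and 16317 in Myelo-4 and to 116 and 86.6 in Gran-1. Granulocyte progenitor markers (Elane, Prtn3, Mpo, Ctsg, Gfi1, Cebpe) were at 46531 and 48910.3 CPM in Gran-2 and at 4775 and 4726 in Myelo-2. Of 6 B and T cell markers, 5 had no UMI in Myelo-4 and 3 had none in Myelo-2. The libraries shared 45 cell barcodes, and leaving those cells out moved the members' summed CPM by at most 2.89% in any cluster.

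Summed over the 42 genes, the level was highest in Myelo-2, with 9636 and 9241 CPM. Myelo-3 followed with 8175 and 7204, Myelo-1 with 7012 and 6986, and cMoP with 6804 and 6847. Meg, the megakaryocyte progenitors, gave 7827 in the female library and 5891 in the male. Among the earlier progenitors, HSCP-2 gave 4292 and 4697, Multi-Lin 5045 and 5291, and Gran-1 5032 and 4911. Gran-2 gave 5566 and 5594, and Mono 5260.4 and 5266. Myelo-4 gave 2120.3 and 1873, below every other cluster except the 14 female cells of HSCP-1. HSCP-1 gave 1413 and 6646, so that its libraries disagreed more than any other pair.

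Much of the Myelo-2 level came from 1 gene. Hmgb2, a chromatin protein that bends DNA, reached 3904 and 3602 CPM there, or 40.5% and 39.0% of the sum, and it made up 25.6% and 26.0% of the sum in Gran-1 and 59.1% and 59.2% in Myelo-4. Without it, the other 41 genes summed to 5731 and 5639 CPM in Myelo-2 and to 6132 and 4577 in Meg, so that the order of these clusters differed between the libraries. Against Gran-1, Myelo-2 was 1.91 and 1.88 times higher for the 42 genes, 1.53 and 1.55 times for the 41 and 3.03 and 2.82 times for Hmgb2 alone.

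CPM is a share of the UMIs captured, and fewer UMIs were captured per Myelo-2 cell: the median was 0.495 and 0.567 times that of Gran-1. Counted per cell, the 42 genes gave 149.9 and 133 UMIs in Myelo-2 and 142 and 111 in Gran-1, 1.05 and 1.19 times as many. Without Hmgb2 the ratio was 0.841 and 0.986. The highest count per cell was in Myelo-1, 175 and 145, and the count then went to 81.6 and 70.7 in Myelo-3 and 13.1 and 10.4 in Myelo-4. UMIs per cell rise with how much of a cell's RNA was captured, so cell size and capture cannot be told apart on that scale. The low level in Myelo-4 held on both scales. Its sum was 0.220 and 0.203 times that of Myelo-2 in CPM, and 0.0874 and 0.0784 times per cell.

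**Figure D2:**
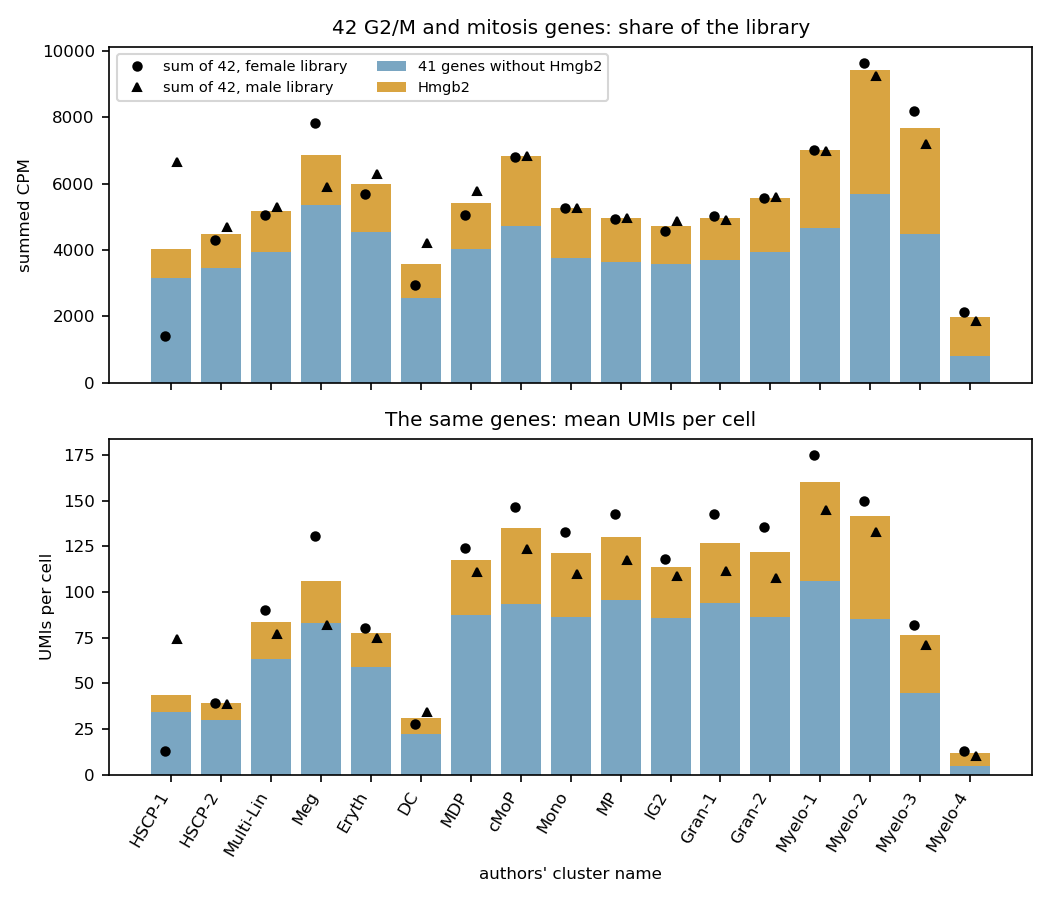
Summed CPM (top) and mean UMIs per cell (bottom) of the 42 genes in the 17 clusters. Bars are means of 2 libraries, split into Hmgb2 (orange) and the other 41 genes (blue), and black symbols are the library sums. Myelo-2 is highest in CPM, at 9636 and 9241, while Myelo-1 is highest per cell, and Myelo-4 is low in both.

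Ranked over the 15 clusters other than HSCP-1 and DC, 23 members had their highest mean in Myelo-2, 15 in Meg, 3 in cMoP (Aurkb, Tacc3, Tmpo) and 1 in Eryth (Tubb4b). Myelo-2 was highest in both libraries for 17 members. Meg was highest in both libraries only for Cdca8, Ndc80, Hjurp, Ckap2l and Anp32e. Meg lay above Myelo-2 for 18 members by mean. Myelo-4 was lowest for 37. The exceptions were Hmgb2, Lbr and Anln, lowest in HSCP-2, with Hjurp lowest in Gran-1 and Bub1 in Eryth. For Anln and Bub1 this rests on 3 UMIs each in Myelo-4, all in 1 library, with 0 in the other.

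**Figure D3:**
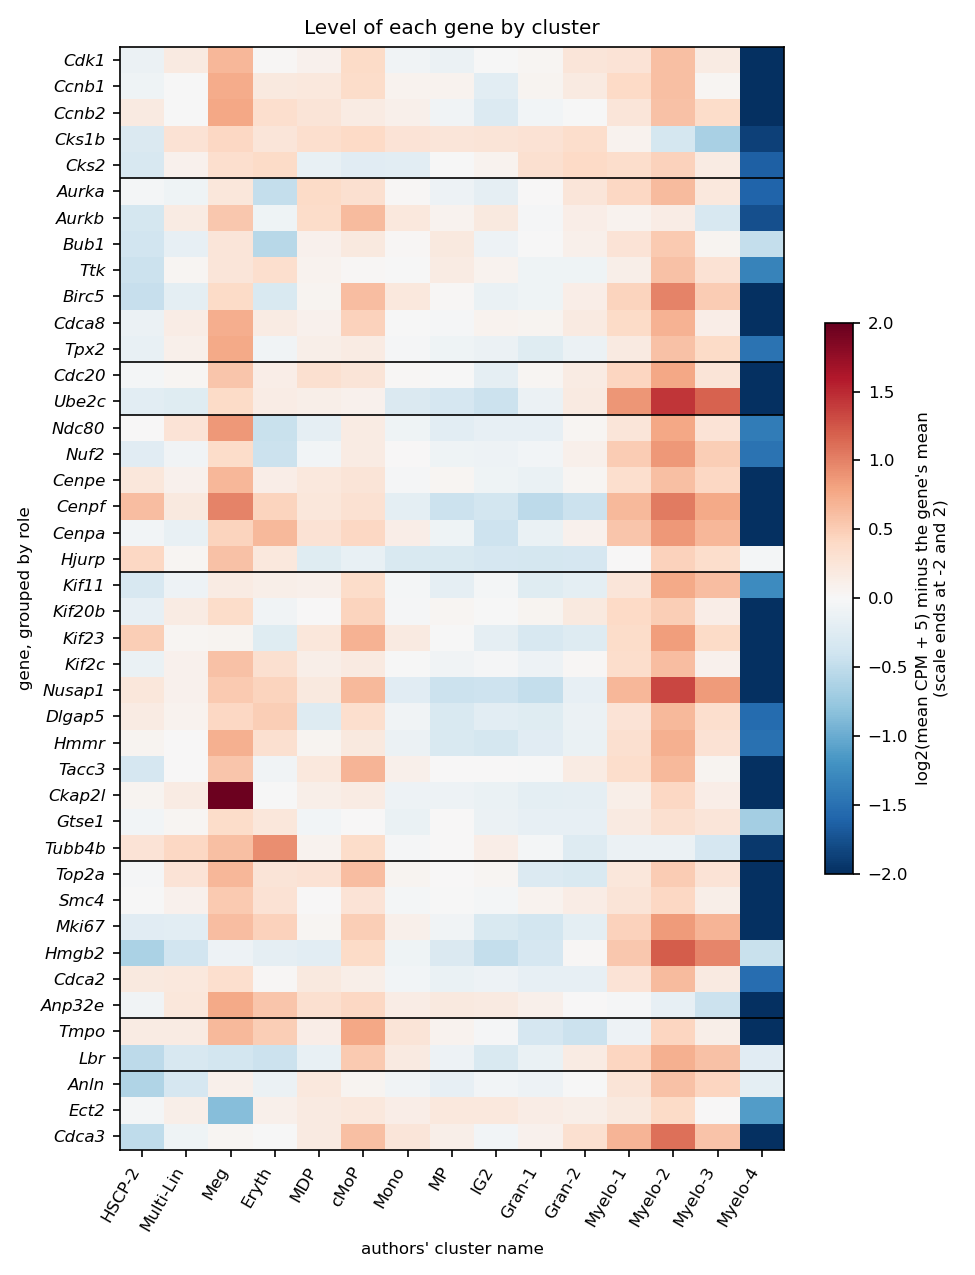
Level of each of the 42 genes in 15 clusters as log2(mean CPM + 5) minus the gene's mean over these clusters, from blue (low) to red (high), with the colour scale ending at -2 and 2 and black lines between role groups. Myelo-2 is red for nearly every row and Myelo-4 blue, while Cks1b and Anp32e are pale blue in Myelo-2 and Ckap2l stands out in Meg.

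Among the cyclin and CDK subunits, Cdk1, the kinase that starts mitosis, was at 119.6 and 120.1 CPM in Gran-1, 173 and 185 in Myelo-2, 144 and 119 in Myelo-3 and 31.3 and 6.41 in Myelo-4. Its cyclin partner Ccnb1 went from 62.5 and 61.1 in Gran-1 to 90.8 and 93.3 in Myelo-2, and Ccnb2 from 93.9 and 87.9 to 145 and 144. In both libraries Myelo-2 lay above Gran-1 for these 3 genes. The small CDK-binding subunits parted. Cks2 was nearly level, with 615 and 613 CPM in Gran-1, 654 and 640.0 in Gran-2 and 687 and 660.3 in Myelo-2. Cks1b, which also serves the ubiquitin ligase that removes the inhibitor p27, was lower in Myelo-2 (219 and 214) than in Gran-1 (334 and 347), and lower still in Myelo-3 (172 and 178).

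Of the kinases and their partners, Birc5 (survivin, of the chromosomal passenger complex) was at 195 and 185 CPM in Gran-1 and 425 and 397 in Myelo-2. Cdca8 (borealin), of the same complex, was at 121 and 127 and then 197 and 194. Aurkb, the complex's kinase, differed less between these clusters. It was at 57.8 and 56.3 in Gran-1, 65.6 and 63.5 in Myelo-2, and higher in Meg (88.6 and 84.7) and cMoP (85.8 and 101). Aurka, the spindle pole kinase, was at 37.6 and 37.4 in Gran-1 and 60.1 and 61.1 in Myelo-2, and its activator Tpx2 at 36.5 and 37.3 and then 67.9 and 71.7. The checkpoint kinases Bub1 and Ttk were low everywhere, at 26.9 and 21.4 and at 25.7 and 22.0 in Myelo-2.

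The partners of the anaphase-promoting complex stood far apart between clusters. Ube2c, the conjugating enzyme that starts ubiquitin chains for it, was at 223 and 191 CPM in Gran-1, 253 and 257 in Gran-2, 416 and 421 in Myelo-1, 619 and 616 in Myelo-2, 580.3 and 457 in Myelo-3, and 36.6 and 19.2 in Myelo-4. Cdc20, its activator, was at 93.3 and 86.8 in Gran-1, 152 and 154 in Myelo-2 and 10.4 and 6.41 in Myelo-4. For both genes the Myelo-2 values of the 2 libraries were nearly equal, and both lay above the values in Gran-1 and Myelo-4.

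At the kinetochore and centromere, Cenpa, the histone that marks centromeres, was at 116 and 101 CPM in Gran-1, 231 and 213 in Myelo-2 and 15.7 and 0 in Myelo-4. Hjurp, which loads it, was at 46.0 and 40.6 in Gran-1, 87.6 and 73.0 in Myelo-2 and still 52.2 and 57.7 in Myelo-4. Hjurp was the member that differed least between these last clusters. Cenpf dipped along the granulocyte clusters, from 44.8 and 57.1 in Multi-Lin to 29.9 and 28.5 in Gran-1, and was at 90.6 and 100.2 in Myelo-2. Ndc80 and Nuf2, the arms of the microtubule-binding complex, were at 13.6 and 12.5 and at 24.0 and 23.9 in Gran-1, and at 27.8 and 31.3 and at 50.1 and 50.1 in Myelo-2.

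Spindle motors and spindle proteins formed the largest group. Nusap1, which bundles spindle microtubules, was at 49.8 and 48.7 CPM in Gran-1, 111 and 118 in Myelo-1 and 180.0 and 189.6 in Myelo-2. Kif11, the motor that pushes spindle poles apart, was at 18.4 and 15.3 in Gran-1 and 41 and 36.9 in Myelo-2, and Kif23, of the central spindle, at 16.6 and 12.4 and then 41.8 and 34.8. Tubb4b, a tubulin that interphase cells also use, was at 330.1 and 305 in Gran-1 and 297 and 306 in Myelo-2, and highest in Eryth (509 and 742). Ckap2l, a mitotic spindle protein, was the exception by cluster. It stood at 115 and 82.2 CPM in Meg, against 22.5 and 26.7 in Multi-Lin and 28.6 and 32 in Myelo-2. Meg exceeded Multi-Lin by 4.01 times for Ckap2l by mean, against 1.55 and 1.11 times for the summed members.

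Among proteins of chromosome structure, Mki67 (Ki-67, which coats mitotic chromosomes) was at 58.1 and 57.0 CPM in Gran-1, 138 and 143 in Myelo-2 and 124 and 124 in Myelo-3. Top2a, which untangles sister DNA, was at 122 and 125 in Gran-1, 209 and 221 in Myelo-2 and 246 and 230.4 in Meg. Smc4, of condensin, was at 174 and 201 in HSCP-2, 194 and 202 in Gran-1 and 245 and 262 in Myelo-2. Anp32e, a chaperone that removes the histone variant H2A.Z, went the other way by CPM, with a Myelo-2 mean 0.828 times that of Gran-1. It was at 169 and 186 in Multi-Lin, 129 and 139.5 in Myelo-2 and 110.2 and 110.2 in Myelo-3. In the tests described below, Myelo-2 against Gran-2 was called higher for it on the TMM scale (log2 fold change 0.44). By library totals it was called lower (-0.17). For the nuclear envelope, Lbr (the lamin B receptor) was at 107 and 92.7 in Gran-1, 199.7 and 168 in Myelo-2 and still 109.7 and 77.0 in Myelo-4. Tmpo, another inner membrane protein, was highest in cMoP (270.5 and 226). Of the cytokinesis and turnover genes, Cdca3, which helps degrade the CDK1 inhibitor Wee1, was at 106 and 103 in Gran-1 and 228 and 206 in Myelo-2. Ect2, the exchange factor of the cleavage furrow, was at only 4.89 and 3.39 in Meg, against 13.5 and 12.3 in Multi-Lin. By the mean of both libraries, Meg was the highest cluster for 15 other members.

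Sums cannot tell many moderately high cells from few very high ones, so each cell was thinned to 4000 UMIs and its UMIs in the 42 genes were counted. In Myelo-2 the 10th percentile, median and 90th percentile were 21, 38.5 and 53.1 UMIs in the female library and 18, 37 and 52 in the male. In HSCP-2 the median was 7 in both libraries while the 90th percentiles were 38 and 45.1. Multi-Lin had medians of 12 and 13. In Myelo-4 the median was 8 in both. A cell was called high from 40 UMIs, 1% of its RNA, a cut with 1015 cells between 36 and 43 UMIs and 1290 cells above it in all. By that cut 47.4% and 41.3% of Myelo-2 cells were high (161 of 340 and 154 of 373, 95% Clopper-Pearson intervals 41.9 to 52.8% and 36.2 to 46.5%). The share was 36.2% and 25.5% in Myelo-3, 34.9% and 18.8% in Meg, 20.5% and 21.6% in cMoP, 17% and 15.9% in Myelo-1, 9.38% and 12.4% in HSCP-2, 8.75% and 10.7% in Multi-Lin and 2.64% and 2.79% in Gran-1. Taking all UMIs of each cell gave 46.8% and 43.2% in Myelo-2 and 1.32% and 1.04% in Gran-1. None of 31 and 28 cells of Myelo-4 was high, and the intervals reach 11.2% and 12.3%. Intervals cover counting error only.

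The cut is sensitive to Hmgb2. Without it, the same 40 UMIs were reached by 2.06% and 4.02% of Myelo-2 cells and by 20.9% and 12.9% of Meg cells, 6.25% and 7.59% of HSCP-2 cells and 0.361% and 0.26% of Gran-1 cells. With 20 UMIs, set after seeing the data, the shares without Hmgb2 were 62.9% and 60.1% in Myelo-2, 44.2% and 31.8% in Meg, 24.9% and 21.2% in Gran-1, 11.7% and 15.2% in HSCP-2 and again 0 in Myelo-4. Myelo-2 thus held the largest share of moderately high cells, and Meg the largest share of very high cells once Hmgb2 was left out, in both libraries, apart from 2 of the 10 male cells of HSCP-1.

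**Figure D4:**
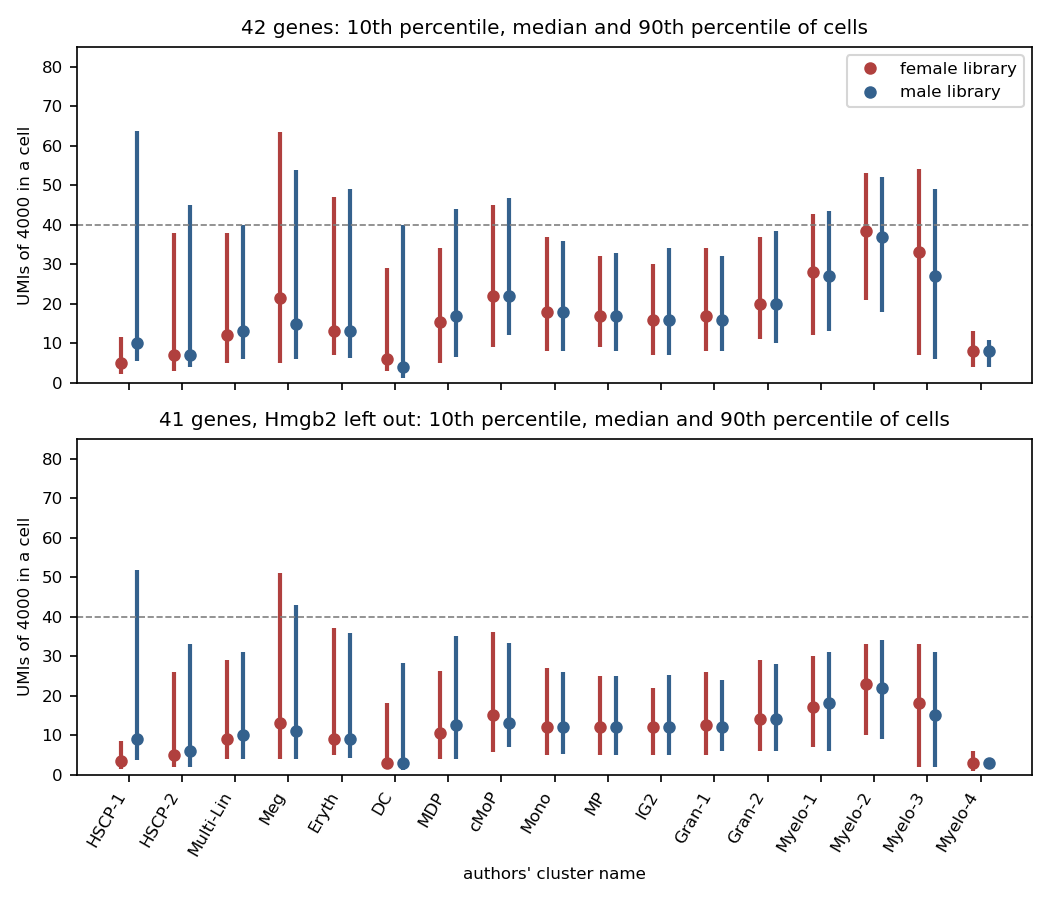
UMIs of the 42 genes (top) and of the 41 genes without Hmgb2 (bottom) per cell, of 4000 UMIs, by cluster: dots are medians and lines run from the 10th to the 90th percentile, female in red and male in blue, with the dashed line at 40 UMIs. In the top panel the Myelo-2 medians of 38.5 and 37 lie just below the line; in the bottom panel only Meg and the 10 male cells of HSCP-1 reach above it at the 90th percentile.

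How tightly a member follows the rest was read within Multi-Lin, by comparing cells high in the other 41 genes with the remaining cells. Ube2c averaged 3.19 and 2.89 UMIs in such cells and 0.333 and 0.401 in the others, 9.59 and 7.19 times more. Ccnb1 was 8.44 and 6.19 times higher, Hmmr 8.15 and 7.39, Nusap1 8.09 and 5.94, Cdc20 7.70 and 5.25, Cenpa 6.53 and 6.65 and Aurka 5.99 and 6.17. Ccnb2 (7.54 and 5.04), Cenpf (7.825 and 5.45), Ckap2l (8.08 and 4.47) and Kif23 (6.57 and 5.90) were also far higher. At the other end stood Lbr (1.52 and 1.46), Tmpo (1.59 and 1.59) and Anp32e (1.95 and 1.86). Cks1b (2.01 and 1.77) and Smc4 (2.45 and 2.01) came next, and all these were higher in the high cells but by less. Hmgb2 was at 2.47 and 2.75, near them in the female library only. In the male library Aurkb (2.39), Hjurp (2.49), Cks2 (2.53) and Top2a (2.55) were among those below it. The high cells for Hmgb2, picked by the other 41 genes, numbered 28 and 38, against 60 and 109 for Lbr. Hmgb2 averaged 4.14 and 4.14 UMIs in the other cells. Anln was at 0.869 and 2.48 times, on few UMIs, with a UMI in 1.67% and 4.42% of high cells and 1.92% and 1.68% of the others. Multi-Lin cells high by all 42 genes (60 and 114 cells, the cut above) were deeper before thinning, with a median of 22559 and 18700.0 UMIs against 16664.5 and 13176.5 in the rest.

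The 6 planned comparisons between clusters were tested with edgeR's quasi-likelihood test on UMIs summed per library and cluster, with the library as a block and Benjamini-Hochberg adjustment over all genes (threshold 0.05). All 42 members were expressed enough to be tested in each. Each fit has 4 sums and 1 residual degree of freedom. The SE given below is the absolute log2 fold change divided by the square root of the test's F value. It is not a measured spread between the 2 libraries. The sources used here do not say how the clusters were made. Clusters usually rest on the same RNA counts, so the calls describe how the clusters differ and do not test it independently. The fit scales by TMM, which sets the typical gene to no change. Because UMIs per cell differ so much between clusters, the counts below, except those for HSCP-1, are also given scaled by library totals (a share of the captured UMIs) and as UMIs per cell, choices made after seeing the data.

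From Multi-Lin to Gran-1, the step into the granulocyte line, members split. On the TMM scale 20 rose and 11 fell, where 58.6% of 11638 genes passed (28.8% higher, 29.9% lower), and the median log2 fold change was 0.08 against -0.02 over all genes. All 3 cytokinesis and turnover genes, both partners of the anaphase-promoting complex and 4 of 5 cyclin and CDK subunits were called higher, while 4 of 11 spindle genes were lower and 1 higher. Cks2 was at 658 and 671 TMM-scaled CPM against 462 and 493 (log2 fold change 0.48, SE 0.03, adjusted p 1.1e-09), and Anln, the actin organiser of the furrow, at 9.39 and 9.50 against 6.22 and 6.02 (0.63, SE 0.12, adjusted p 4.9e-04). Cenpf was lower (-0.60, SE 0.08, adjusted p 7.3e-06), as was Nusap1 (-0.39, SE 0.06, adjusted p 2.7e-05). The direction of the group depended on the scale: by library totals 5 were higher and 21 lower (15% and 50% of all genes), and per cell 35 were higher and 1 lower (61.5% and 13.1%). Anln, Cks2, Lbr, Cdca3 and Birc5 were higher, and Cenpf lower, on all 3 scales.

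From Gran-1 to Gran-2, 27 members rose and 1, Tubb4b, fell on the TMM scale, where 35.3% of 11004 genes passed (18.8% higher, 16.5% lower). The changes were small, with a median of 0.23 against -0.01 over all genes. Hmgb2 went from 1237 and 1254 to 1650.4 and 1722 TMM-scaled CPM (log2 fold change 0.44, SE 0.01, adjusted p 2.5e-10), and Nusap1 from 47.7 and 47.8 to 60.5 and 68.2 (0.44, SE 0.06, adjusted p 5.0e-05). All 5 cyclin and CDK subunits were called higher, Cks2 by 0.16 and Cks1b by 0.16. By library totals 23 were higher and 2 lower (13.7% and 27.2% of all genes). Per cell 3 were higher (Hmgb2, Nusap1, Ube2c) and 13 lower (6.03% and 59.8%), so that only these 3 were higher on all 3 scales.

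From Gran-2 to Myelo-2, 41 members rose and Cks1b alone fell on the TMM scale, where 65.1% of 9744 genes passed (32.5% higher, 32.5% lower). The median was 1.40 against 0.00 over all genes. Cenpf was at 111 and 125 TMM-scaled CPM against 21.8 and 29.1 (log2 fold change 2.21, SE 0.08, adjusted p 4.6e-37), Nusap1 at 221 and 237 against 47.8 and 53.2 (2.18, SE 0.06, adjusted p 1.8e-44), Ube2c at 759 and 771 against 204 and 209.9 (1.89, SE 0.03, adjusted p 7.5e-56) and Hmgb2 at 4784 and 4509 against 1303 and 1343 (1.81, SE 0.05, adjusted p 9.9e-46). Birc5 rose by 1.498 and Cks2 by 0.67. In both libraries each of these lay above Gran-2. Cks1b fell by 0.10 (SE 0.04, adjusted p 0.032) on this scale, by 0.72 by library totals and by 1.25 per cell.

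The all-gene median itself moved with the scale, to -0.62 by library totals and -1.15 per cell, and the members' median to 0.78 and 0.25. By library totals 38 members were higher and 2 lower (Cks1b and Anp32e), where 14.5% of genes were higher and 61.2% lower. Per cell 15 were higher and 5 lower, where 6.22% were higher and 77.6% lower. The 15 were higher on all 3 scales: Cenpf, Nusap1, Kif23, Ube2c, Hmgb2, Kif11, Mki67, Cdca2, Dlgap5, Hmmr, Ndc80, Tmpo, Birc5, Nuf2 and Hjurp. Of the kinetochore and centromere genes 4 of 6 were among them, of the spindle genes 5 of 11, and of the cyclin and CDK subunits none of 5. Per cell, Cdk1 changed by -0.17 and Ccnb1 by -0.08, both short of the threshold, and Cks1b, Anp32e, Aurkb, Cks2 and Tubb4b fell.

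From Myelo-2 to Myelo-4, 36 members fell and 0 rose, where 11.4% of 7701 genes passed (4.57% higher, 6.82% lower). Those short of the threshold were Ttk, Ect2, Gtse1, Bub1, Anln and Hjurp. By library totals 36 fell and 0 rose, where 3.84% of genes were higher and 7.97% lower. Per cell all 42 fell, where 0.883% of genes were higher and 56.4% lower. The Myelo-4 sums hold 347387 UMIs in all, and 24 members had fewer than 4 UMIs there, so folds are given from counts pooled over both libraries with 95% counting intervals for members that had UMIs. Cenpe, Cenpf, Kif23, Kif2c and Ckap2l had 0 UMIs. Against the 3 UMIs that a count of 0 allows over both libraries (8.64 CPM), Cenpf was at least 11.05-fold lower and Cenpe at least 5.40-fold, and the bounds for Kif23, Ckap2l and Kif2c were 4.43, 3.51 and 3.12. Ube2c was 21.5-fold lower (10 UMIs, 11.7 to 44.8), Cdca3 37.6-fold on 2 UMIs (10.4 to 310.9) and Cenpa 25.7-fold on 3 (8.77 to 125). With genes at 0 set to their bound, the median pooled log2 ratio was -2.86.

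The fall was uneven. Hmgb2 had 413 UMIs in Myelo-4 and was 3.16-fold lower (log2 fold change -1.58, SE 0.09, adjusted p 1.7e-58 on the TMM scale). Lbr was 1.93-fold lower on 33 UMIs (1.37 to 2.82), Cks1b 3.01-fold on 25, Tubb4b 3.74-fold on 28 and Cks2 4.41-fold on 53. Hjurp was 1.47-fold lower on 19 UMIs, with an interval from 0.93 to 2.45. Of these, Lbr, Hmgb2, Cks1b and Tubb4b are also made outside mitosis, but a link to the size of the fall was not tested.

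From Gran-1 to Mono, the monocyte-committed cells, 16 members were higher and 4 lower, where 43.3% of 11188 genes passed (22.2% higher, 21% lower). The median was 0.12 against 0.00 over all genes. Tmpo was at 173 and 170.2 TMM-scaled CPM in Mono against 117 and 107 (log2 fold change 0.62, SE 0.04, adjusted p 2.4e-09) and Kif23 at 21.5 and 23.4 against 16.5 and 12.5 (0.65, SE 0.11, adjusted p 2.2e-04). Cks2 was lower, at 423 and 418 against 610.3 and 620.0 (-0.55, SE 0.02, adjusted p 1.9e-11), together with Ube2c (-0.17), Cdk1 and Smc4. Both nuclear envelope genes were called higher. By library totals 16 were again higher and 4 lower (24.1% and 22.3% of all genes). Per cell 10 were higher and 10 lower (14.3% and 37.5% of all genes), and the 4 lower ones were lower on all 3 scales.

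At the stem end, Multi-Lin against HSCP-1 gave 0 higher and 0 lower members by edgeR and by DESeq2. At an unadjusted p under 0.05 edgeR gave 9 of 42 members and 1338 of 10323 genes, and DESeq2 gave 6 of 42 and 765 of 15275. There 2.03% of 10323 genes passed (1.31% higher, 0.727% lower). With 24 HSCP-1 cells the libraries disagreed: the median log2 ratio was 2.03 in the female library and -0.27 in the male. HSCP-2, with 256 and 290 cells, was compared in its place after seeing this. Multi-Lin was then higher for 20 members and lower for 3 (Kif23, Cenpf, Hjurp), where 40.6% of 10967 genes passed (20.9% higher, 19.7% lower), with a median of 0.37 against -0.02. By library totals the counts were 14 and 3 (13.5% and 28.6% of all genes), and per cell 41 and 0 (66.1% and 4.83%). Of the 40 S-phase genes, 36 were called higher and 0 lower on the TMM scale, 32 and 0 by library totals, and 40 and 0 per cell. These lists were not tested against each other.

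**Figure D5:**
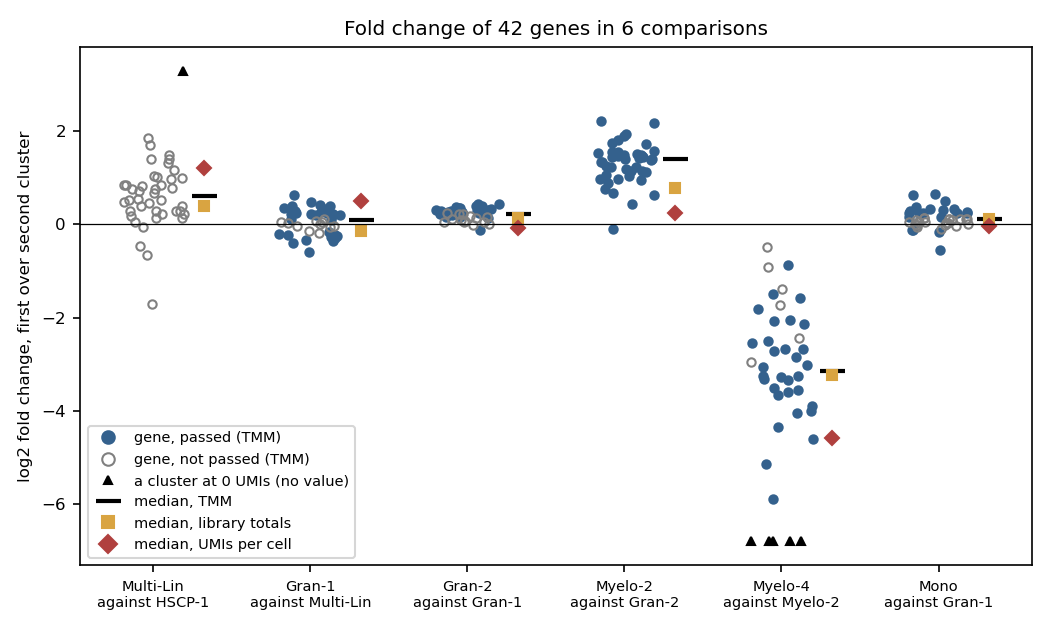
log2 fold change (TMM scale) of the 42 genes in 6 comparisons: filled dots passed the test, open dots did not, and triangles at the edge are genes with 0 UMIs in a cluster, whose fold has no value. Black bars are medians on the TMM scale, orange squares by library totals and red diamonds per cell. In Myelo-2 against Gran-2 the median is 1.40, 0.78 and 0.25 on these scales; in Myelo-4 against Myelo-2 it lies far below 0 on all 3.

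The 53 other mitosis genes were counted in the same fits. In Myelo-2 against Gran-2, 49 were higher and 2 lower on the TMM scale, with a median of 1.21, where 32.5% of all genes were higher and 32.5% lower. By library totals 40 were higher and 5 lower (14.5% and 61.2% of all genes), and per cell 11 were higher and 10 lower (6.22% and 77.6%), with a median of 0.07. In Myelo-4 against Myelo-2, 31 of 52 tested fell and 0 rose, where 6.82% of all genes were lower and 4.57% higher. From Multi-Lin to Gran-1, the split turned with the scale: 12 were higher and 18 lower with TMM (28.8% and 29.9% of all genes), 4 and 32 by library totals (15% and 50%), and 40 and 5 per cell (61.5% and 13.1%). Of the 8 with the highest mean level, Smc2 (condensin) was at 86.0 and 97.5 CPM in Gran-1 and 183 and 181 in Myelo-2, and Ccna2 (cyclin A) at 69.3 and 61.3 and then 138 and 139.9. Spc24, of the Ndc80 complex, was at 111 and 117 and then 158 and 151. Jpt1 was highest in Meg, at 509.5 and 389.7 against 269.7 and 263 in Myelo-2. Ctcf and Rangap1, which interphase cells need as well, were at 51.4 and 57.9 and at 46.1 and 47.5 in Myelo-2, below Multi-Lin (83.9 and 86.7, and 69.2 and 73.1). Bub3, of the spindle checkpoint, was at 180 and 189 in Multi-Lin and 205 and 205 in Myelo-2, and Lmnb1 (lamin B1) at 129.8 and 128 and then 130.3 and 134.

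Across the granulocyte clusters the S-phase genes were lower in Myelo-2 than in Gran-1 by summed CPM. Their summed level was 3247 and 3232 CPM in Multi-Lin, 2702 and 2855 in Gran-1, 2179 and 2129.6 in Myelo-2, 1449 and 1692 in Myelo-3 and 465 and 417 in Myelo-4. In Myelo-2 against Gran-2, 15 of 40 were higher and 15 lower on the TMM scale (32.5% and 32.5% of all genes). By library totals 6 were higher and 29 lower (14.5% and 61.2%), and per cell 1 was higher and 36 lower (6.22% and 77.6%). Genes were also ranked by how closely their level followed the members' sum over the 34 sums of library and cluster. The 4352 genes ranked had a mean of at least 20 CPM. Members and other mitosis genes were left out, but S-phase genes were not. The closest were Ska1, Dbf4, Esco2, Asf1b, Ube2s, Tuba1c, Lockd, Kpna2, Shcbp1 and H2afx, with Pearson r from 0.922 down to 0.851. With Hmgb2 left out of the sum, the closest were Dbf4 (0.968), Ube2s (0.954) and Ska1 (0.942). These sums share libraries and depth, so r is a description.

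The antibody tags offered a readout that the members do not use. High cells by the cut of 20 UMIs without Hmgb2 were compared with the other cells of their cluster in the 9 clusters with at least 30 of each per library, 18 values in all. Median CD117 was higher in the high cells in 18 of 18 values, 1.09 to 1.60 times. In Multi-Lin it was 396 and 248 counts in high cells against 336 and 195 in the others, and in Gran-1 372 and 227 against 283 and 163. CD11b, an integrin of mature myeloid cells, was higher in 15 of 18, Ly-6C in 17 and Ly-6G in 17. The sum of the 4 antibodies was higher in 17 of 18, with a median ratio of 1.30, and total UMIs in 18 of 18, from 1.12 to 2.02 times. With the cut of 40 UMIs over all 42 genes, 4 clusters gave 8 values, and there CD117 was higher in 7, Ly-6C in 6 and Ly-6G in 5. CD11b was higher in 4 (median ratio 0.996), the antibody sum in 5 and total UMIs in 8. For CD11b the direction went by cluster: higher in Multi-Lin and Myelo-1, lower in Myelo-2 and Myelo-3, in both libraries. The part of cell size or depth in the CD117 difference was not tested. S-phase UMIs out of 4000 were higher in the high cells in 4 of 18 values with the cut of 20 UMIs (median ratio 0.667). These were both libraries of HSCP-2 and of Myelo-3. With the cut of 40 they were higher in 1 of 8 (median ratio 0.7).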

How the data were processed

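RNA was read with 10x Genomics 3' version 2 chemistry and processed with Cell Ranger 2.1.0 against mm10, per the submitters' processing notes. The authors deposited whole-number UMI counts per gene and cell, antibody counts per cell, and a cluster for each cell. The sources used here do not say how clusters were made or doublets removed, and no doublet caller was run. The members and gene lists were chosen with earlier results of these data known.

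Counts were summed per library and cluster. CPM divides by that sum's total. Comparisons used edgeR 4.0.16 (quasi-likelihood test, TMM, filterByExpr, library as a block, Benjamini-Hochberg adjustment, threshold 0.05), with DESeq2 1.42.0, other scalings and filters, and thinned counts as alternatives. Sums of 2 clusters that come from the same library form a pair. The correlation across genes of the female minus male deviations was 0.606 to 0.642 for Gran-1 against Multi-Lin, Gran-2 against Gran-1 and Mono against Gran-1, 0.424 for Myelo-2 against Gran-2, 0.130 for Multi-Lin against HSCP-1 and 0.0717 for Myelo-4 against Myelo-2. The script was tested on simulated data. There a log2 change of 1 was called for 1.49% of changed genes in Multi-Lin against HSCP-1. The share was 11.9% in Myelo-4 against Myelo-2 and 73.1% to 91.0% in the other planned comparisons. For a log2 change of 2 it was 43.9% and 40.9% in the first 2 of these. Members not called in those 2 comparisons may therefore still differ. Thinning to 4000 UMIs used a fixed seed. Fold changes with p-values were named for the 4 members of highest mean CPM and the 2 passing members with the largest change in each direction. Other members were named after their values were seen. Hmgb2, Cks1b, Tubb4b and other members have close paralogs or pseudogenes, and how shared reads were counted is not given, so their levels are less certain. Analyses used Python 3.11.15 and R 4.3.3.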

Additional observations from a re-analysis of the deposited data

Results flagged for a closer look

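In Multi-Lin against HSCP-1, the libraries went opposite ways for the members' summed CPM: the log2 ratio was 1.84 in the female library and -0.33 in the male. HSCP-1 held 14 female and 10 male cells. The difference between the libraries was not tested.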

How the results depend on the processing

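Counts of called members moved with the setting as follows, higher before lower. Percentages in brackets are shares of all genes tested under the same setting. The cause was not tested unless named. For Multi-Lin against HSCP-1 (0 and 0), no filter gave 5 and 0 (2.29% and 0.753%). Thinned counts gave 3 and 0 (3.05% and 0.706%), and all clusters in one fit 5 and 1 (4.43% and 1.79%). Library totals gave 3 and 1 (1.64% and 1.97%), and UMIs per cell 1 and 0 (1.06% and 0.417%). For Gran-1 against Multi-Lin (20 and 11), DESeq2 gave 11 and 5, thinned counts 4 lower, library totals 5 and 21, and UMIs per cell 35 and 1. For Gran-2 against Gran-1 (27 and 1), DESeq2 gave 10 and 0 (4.98% and 2.76%). Thinned counts gave 14 and 0 (9.66% and 8.42%), and all clusters in one fit 20 and 0 (15.5% and 12.3%). Library totals gave 23 and 2 (13.7% and 27.2%), and UMIs per cell 3 and 13 (6.03% and 59.8%). For Myelo-2 against Gran-2 (41 and 1), DESeq2, thinned counts and all clusters in one fit gave 0 lower, library totals 2 lower, and UMIs per cell 15 and 5. For Myelo-4 against Myelo-2 (36 lower), DESeq2 gave 0 and 20 (1.19% and 1.31%). Thinned counts gave 23 lower, and the share of all genes is not given here. For Mono against Gran-1 (16 and 4), DESeq2 gave 8 and 2 and thinned counts 10 and 2, with the shares of all genes not given here. UMIs per cell gave 10 and 10 (14.3% and 37.5%). All clusters in one fit gave 1 lower, and its count of higher members is not given here.

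Without the replicate block, the pairing by library is dropped. Members called higher and lower were then 4 and 0 in Multi-Lin against HSCP-1 (3.73% and 1.70% of all genes). Gran-1 against Multi-Lin gave 14 and 7 (22.3% and 23.5%), and Gran-2 against Gran-1 12 and 0 (9.63% and 7.32%). Myelo-2 against Gran-2 gave 41 and 0 (29.4% and 29.2%). In Mono against Gran-1, 1 was lower, and the count of higher members is not given here. For Multi-Lin against HSCP-1, 1 library set the direction: the members' median log2 ratio in single libraries ranged from -0.27 to 2.03 (0.60 over both). For Myelo-2 against Gran-2 it was 1.34 in either library (1.40 over both).

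Single members turned direction. Per cell, Tubb4b (0.19) was called higher in Gran-1 than in Multi-Lin and Nusap1 (0.0332) was not called, while Cks2 (-0.15) and Cks1b (-0.16) were lower in Gran-2 than in the preceding Gran-1, and Cks2 (-0.48) lower in Myelo-2 than in Gran-2. Tubb4b in Mono against Gran-1, not called in the main setting, was at -0.0041 by DESeq2, -0.0102 with no filter, -0.0050 with all clusters in one fit and -0.13 per cell.

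The mean share of high cells was 10.9% in HSCP-2 (16.9% from 0.5%, 0.735% from 2%, 6.92% without Hmgb2, 13.4% without Hmgb2 from 0.5%), 26.9% in Meg (45.0% from 0.5%, 0.581% from 2%), 2.72% in Gran-1 (39.7%, 0 from 2%, 1.18% on all UMIs, 0.310% without Hmgb2, 23.0% without Hmgb2 from 0.5%) and 44.3% in Myelo-2 (89.9%, 0 from 2%, 3.04% and 61.5% without Hmgb2). Without Hmgb2 the mean summed CPM was 3454 in HSCP-2 (3459 with it on thinned counts), 5355 in Meg, 3688 in Gran-1 (4708 with it on thinned counts), 5685 in Myelo-2 and 815 in Myelo-4.

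With 1 residual degree of freedom and 1 library of each sex, the p-values rest on few samples. Myelo-4 members with under 4 UMIs have wide intervals, and depth there does not separate a low level from none.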
